A study of Mus musculus with 4 samples.

Results

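Alveolar type 1 cells are the very flat epithelial cells that cover most of the gas exchange surface of the lung. They form a thin barrier with the capillary endothelium across a shared basement membrane, and they move water and ions out of the airspace. Their neighbours, the alveolar type 2 cells, make surfactant and renew them after injury. Here they were taken from 4 single-cell RNA libraries of mouse lung by a rule on counts of unique molecular identifiers (UMIs, each marking 1 captured RNA molecule). A barcode, the tag of 1 droplet, was kept if it carried 500 UMIs or more from 200 genes or more and if mitochondrial genes gave no more than 10% of them. Members were chosen by their UMIs. Each had at least 3 UMIs over Ager, Akap5, Cldn18, Sec14l3, Krt7 and Clic3, with at least 2 of these genes detected, and no UMI of Lamp3, Slc34a2 (both type 2), Ptprc (leukocytes), Cdh5 (endothelium), Col1a2 (fibroblasts) or Ppbp (platelets). The rule found 810 members among 34440 kept barcodes, of which PBS gave 231, PBS+RT 190, LPS 105 and LPS+RT 284. The 6 marker genes chose the members, so their values are given as a description only.

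The mice were wild-type C57BL/6 males of 6 to 7 weeks. Each received 100 µL into the trachea, either PBS alone or 200 µg of lipopolysaccharide (LPS, the endotoxin of Gram-negative bacteria, which inflames the lung). The groups PBS+RT and LPS+RT then received 1 Gy of X-rays to the chest 24 hours later, and every lung was taken at 48 hours after the injection. After dissociation, mononuclear cells of all groups were enriched on Ficoll-Paque of grade 1.084, a step whose yield of epithelial cells is not given, with a target of 10000 cells per library. Each group is 1 library, and the labels do not give the number of mice in it. Without replicates, no test could be made and no difference below was checked against the spread between mice. The intervals given are exact at 95% and hold the counting error alone. A level in CPM is a gene's part, per 1000000, of all UMIs summed over the members of a library. It serves to compare libraries for 1 gene, not genes with each other. A gene is counted as higher or lower where its CPM differed by at least 2-fold, among genes with a mean of at least 30 CPM over the 4 libraries.

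The sequences in front of 4 genes that the results turn on show where motifs of known regulators lie. Ager and Hopx are type 1 cell genes, and Cdkn1a and Ccng1 are targets of p53, the transcription factor that answers DNA damage. Each is the 250 bases before a transcript start, from RefSeq on GRCm38.p6, 5′ to 3′ on the strand of the gene. Capitals mark the core CTCAAG of NKX2-1, the lung epithelial homeobox factor, and the p53 half-site, searched on both strands. Ager lies at chr17:34597600-34597849 on the plus strand and the first start of Hopx at chr5:77115124-77115373 on the minus strand. The first start of Cdkn1a lies at chr17:29090729-29090978 on the plus strand and Ccng1 at chr11:40755287-40755536 on the minus strand.
Ager: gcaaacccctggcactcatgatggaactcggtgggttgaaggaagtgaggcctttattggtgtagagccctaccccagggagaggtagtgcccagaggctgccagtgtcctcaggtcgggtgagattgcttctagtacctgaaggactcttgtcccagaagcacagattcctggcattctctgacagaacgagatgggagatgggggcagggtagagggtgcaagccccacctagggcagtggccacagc
Hopx: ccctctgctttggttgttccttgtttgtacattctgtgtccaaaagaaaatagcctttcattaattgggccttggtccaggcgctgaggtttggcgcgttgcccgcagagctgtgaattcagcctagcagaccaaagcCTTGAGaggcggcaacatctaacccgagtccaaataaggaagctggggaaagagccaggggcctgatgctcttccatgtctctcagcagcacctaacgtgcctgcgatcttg
Cdkn1a: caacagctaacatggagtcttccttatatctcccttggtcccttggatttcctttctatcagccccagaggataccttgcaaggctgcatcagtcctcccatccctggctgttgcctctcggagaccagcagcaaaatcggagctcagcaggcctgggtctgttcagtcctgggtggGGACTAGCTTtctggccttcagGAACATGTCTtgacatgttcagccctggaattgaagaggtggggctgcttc
Ccng1: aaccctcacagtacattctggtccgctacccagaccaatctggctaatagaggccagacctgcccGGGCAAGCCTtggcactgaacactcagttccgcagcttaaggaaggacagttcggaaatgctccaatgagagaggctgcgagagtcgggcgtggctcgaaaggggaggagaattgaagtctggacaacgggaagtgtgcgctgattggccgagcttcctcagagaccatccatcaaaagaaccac
The Ager window held no NKX2-1 core, and that of Hopx held 1, in reverse orientation, with its first base 112 bases before the start. Neither held GGAATG, the core of the TEAD factors, which also act in type 1 cells. The Cdkn1a window held 2 p53 half-sites, 73 and 51 bases before the start, and the Ccng1 window 1, 185 bases before it. The second starts listed for Hopx and Cdkn1a had windows with none of the motifs searched for them, and the window of Phlda3, another p53 target, held none either. Of 32851 mouse promoter windows of this length, 13.3% held the NKX2-1 core, 12.6% the TEAD core and 7.13% the p53 half-site, so a match is a description and not evidence of binding.

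The label was checked against type 1 genes outside the rule and against markers of other cells. A part of the members carried a clear type 1 profile and a larger part did not. Hopx, a homeobox gene of mature type 1 cells, stood at 707 CPM in members with a marker sum of 3 to 4, at 1860 CPM for a sum of 5 to 9, at 3379 CPM for 10 to 19 and at 6183 CPM for 20 and over. It stood at 50.5 CPM in leukocyte-marked, 20.1 CPM in fibroblast-marked, 105 CPM in AT2-marked and 300 CPM in endothelial-marked barcodes, which are barcodes of the same libraries that carry those lineage genes and not the type 1 genes (the AT2-marked ones may hold up to 2 UMIs of these). In these counts, members whose marker genes made up at least 1% of their UMIs are called AT1-dense, a limit set after the data had been seen. There were 300 AT1-dense members (PBS 92, PBS+RT 95, LPS 20 and LPS+RT 93), and 167 others lay between 0.5% and 1%. The type 1 genes outside the rule made up a median 6.99% of UMIs in the 35 AT1-dense members with at least 5000 UMIs and 4.31% in the other 265, but 1.46% in the 465 members that were neither dense nor assigned to the groups below. In those 465, endothelial, fibroblast and type 2 markers each had a median near 0.2% (0.188%, 0.213% and 0.226%). Malat1, a nuclear RNA, made up a median 5.83% of UMIs in the 35 deep AT1-dense members. Its median was 0.124% in the 265 other AT1-dense members and 0.109% in the 465. Whether barcodes so low in Malat1 are whole cells was not tested, so AT1-dense members are not a count of intact cells. Another 34 members were airway-marked, 21 by secretory genes such as Scgb1a1 and 13 by cilia genes (Krt7 and Sec14l3 are also expressed in airway epithelium). Hemoglobin made up at least 10% of UMIs in 11 members. Airway-marked members held 22.9%, 13.5%, 20.7% and 9.44% of the members' UMIs in PBS, PBS+RT, LPS and LPS+RT.

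The marker part of the rule alone was met by 5392 barcodes, and 4582 of them were excluded for a UMI of another lineage, most often Cdh5 (3301 barcodes) and Col1a2 (1400). Members were shallow, with a median of 1302, 1600, 1536 and 1452 UMIs in PBS, PBS+RT, LPS and LPS+RT against 4375, 8674, 5641 and 4460 UMIs in all kept barcodes. At the threshold, 140 members had a marker sum of exactly 3, and 203 barcodes that met the other conditions had a sum of 2. Members held 737989, 658344, 327583 and 672448 UMIs in total, of which the AT1-dense held 49.0%, 50.7%, 20.3% and 37.4%. In LPS, 1 AT1-dense barcode of 34443 UMIs held 51.9% of the AT1-dense UMIs. Barcode sequences were not analysed here, so droplets shared between libraries were not counted, and no doublet caller was run. The AT1-dense members are therefore described beside all members throughout, with that LPS barcode left out where it carries a value. Leaving it out lowers the depth of LPS only. The AT1-dense members of at least 5000 UMIs stay in for PBS, PBS+RT and LPS+RT (15, 10 and 8 barcodes).

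**Figure D1:**
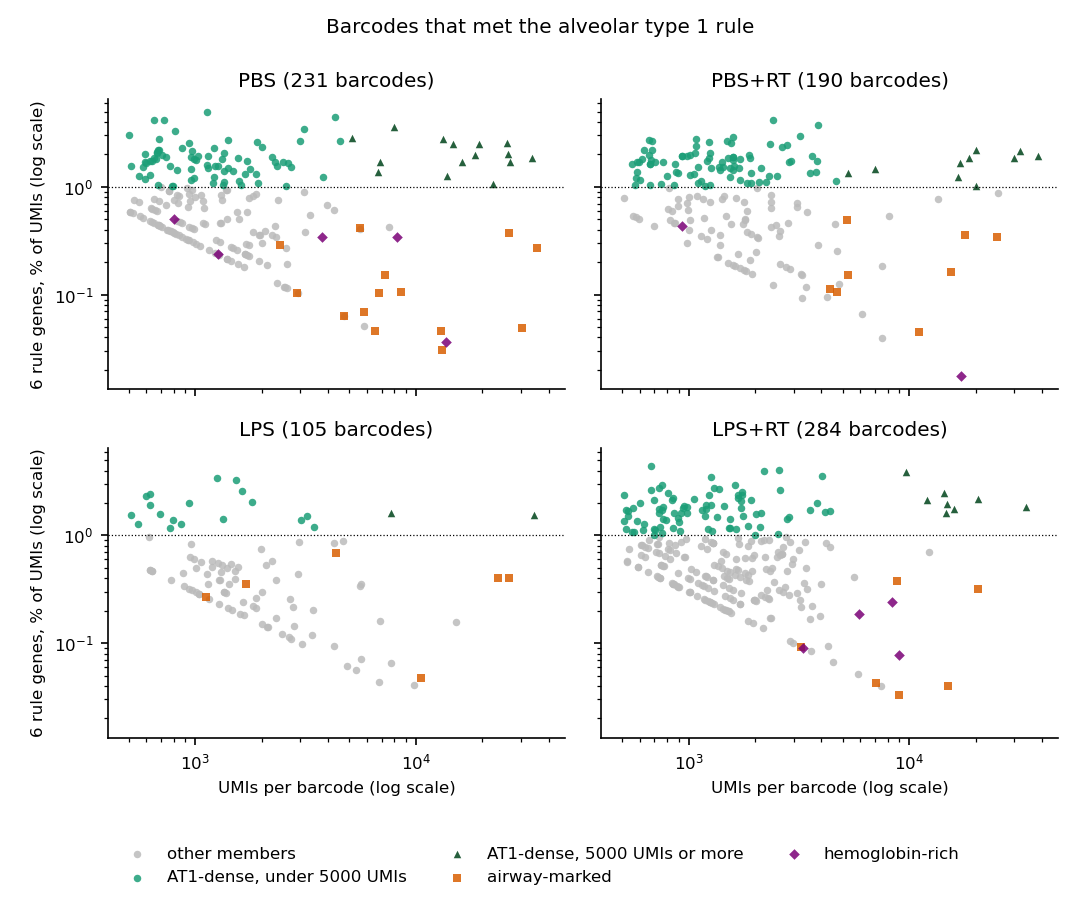
Each point is 1 of the 810 members, with its UMIs on the horizontal axis and the percentage of them from the 6 marker genes on the vertical axis, both on log scales, in a panel per library. Colours give AT1-dense, airway-marked, hemoglobin-rich and other members, and the dotted line is at 1%; only 20 AT1-dense members appear in LPS, against 92 to 95 in each of the other libraries.

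LPS without irradiation was the library with the fewest members. Their share of kept barcodes was 2.56% (2.24 to 2.9) for PBS, 2.99% (2.59 to 3.44) for PBS+RT, 1.15% (0.941 to 1.39) for LPS and 2.86% (2.54 to 3.21) for LPS+RT. The share was 2.22-fold lower in LPS than in PBS (1.76 to 2.83), and 2.49-fold higher in LPS+RT than in LPS (1.99 to 3.15). LPS+RT stood at 0.956 of the PBS+RT share (0.793 to 1.16), and PBS+RT at 1.17 times that of PBS (0.962 to 1.43), and both intervals include 1. When barcodes with a UMI of 8 further lineage genes were removed as well, PBS kept 7 members and LPS 12, and the direction turned, to a ratio of 1.70 in LPS against PBS (0.615 to 5.08). Barcodes without a UMI of Ptprc, the leukocyte antigen CD45, numbered 6076, 3966, 3215 and 5733 in PBS, PBS+RT, LPS and LPS+RT, so the LPS library held the fewest. Of these barcodes, members made up 3.80%, 4.79%, 3.27% and 4.95% in PBS, PBS+RT, LPS and LPS+RT. On that base LPS stood at 0.859 of PBS (0.675 to 1.09), an interval that includes 1, and LPS+RT was 1.52-fold higher than LPS (1.21 to 1.92).

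Over all kept barcodes, the AT1-dense members had a wider gap. They numbered 92, 95, 20 and 93 in PBS, PBS+RT, LPS and LPS+RT, beside 6076, 3966, 3215 and 5733 barcodes without Ptprc. Their share on that base was not computed. Leukocyte-marked barcodes numbered 921, 890, 3403 and 1721, and their part in the shares of kept barcodes was not tested. The AT1-dense share was 1.02%, 1.5%, 0.219% and 0.938% of kept barcodes in PBS, PBS+RT, LPS and LPS+RT. That is 4.65-fold lower in LPS than in PBS (2.84 to 7.97) and 4.29-fold higher in LPS+RT than in LPS (2.62 to 7.34). With irradiation, LPS+RT was 1.60-fold lower than PBS+RT (1.19 to 2.15), and PBS+RT was 1.47-fold higher than PBS (1.09 to 1.98). After every kept barcode was thinned to 2000 UMIs, leaving out shallower ones, members were 1.74%, 2.36%, 0.716% and 1.79% of 6221, 5305, 7265 and 6866 barcodes in PBS, PBS+RT, LPS and LPS+RT. Fewer type 1 cells in the lung, fewer recovered by dissociation and the gradient, and less RNA of the marker genes per cell cannot be told apart here.

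**Figure D2:**
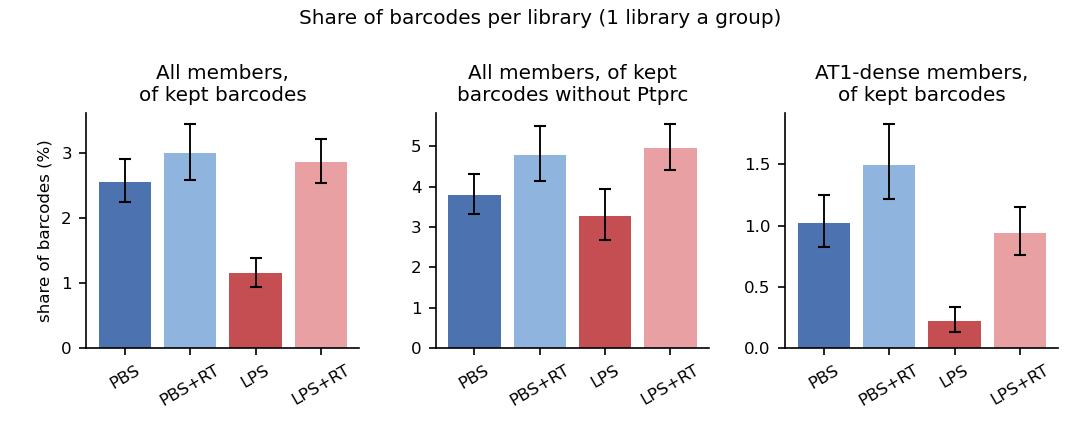
Bars give the percentage of barcodes in each library that were members of all kept barcodes, members of barcodes without Ptprc, and AT1-dense members of all kept barcodes, with exact Clopper-Pearson 95% intervals for counting error. LPS has the lowest bar in each panel, at 1.15%, 3.27% and 0.219%.

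The 6 genes of the rule differed in how evenly they marked members. Ager, the receptor for advanced glycation end products and the classic type 1 marker, was at 5954, 4531, 2222 and 4983 CPM in members of PBS, PBS+RT, LPS and LPS+RT. It was at 11361, 8057, 8783 and 11347 CPM in AT1-dense members. Its lowest library was thus LPS over all members and PBS+RT among the dense ones. Cldn18, a tight junction claudin, was at 2954, 3136, 2772 and 3285 CPM in AT1-dense members. Sec14l3, a lipid-binding protein, was as even, at 1979, 2264, 2049 and 1989 CPM. Akap5, an anchor protein for protein kinase A, was highest in PBS+RT, at 2306 CPM against 1334, 1266 and 1412 CPM in PBS, LPS and LPS+RT. Krt7, an intermediate filament keratin, was at 1376, 1105, 1145 and 1169 CPM in the same order of libraries. Clic3, an intracellular chloride channel family protein, was at 994, 985, 603 and 1074 CPM. Of all members, 147 had UMIs of all 6 genes and 164 of exactly 2.

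Across all members, type 1 genes outside the rule were lower in LPS than in PBS, and higher in LPS+RT than in LPS. Of 40 such genes, 39 had a mean of at least 30 CPM. In LPS against PBS, none was at least 2-fold higher and 21 were at least 2-fold lower, with a median log2 ratio of -1.08, where 14.3% of all 5365 genes counted were higher and 7.03% lower and their median was 0.17. In LPS+RT against LPS, 13 were higher and none lower, with a median of 0.81, beside 5% and 14.7% of all genes and a median of -0.14. The other pairs lay nearer to 0: in LPS+RT against PBS+RT the list's median was -0.31 with no gene past 2-fold (3.58% of all genes higher, 8.52% lower, median -0.16; with median-of-ratios scaling the 192 higher and 457 lower become 304 and 293), and in PBS+RT against PBS it was 0.09 with none past 2-fold (5.98% higher, 2% lower, median 0.11). These comparisons share libraries, so they are not separate evidence. The lower share of AT1-dense UMIs in LPS moved with this result.

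Within the AT1-dense members, most of the difference was not seen. These members were chosen by a limit of 1% on the 6 marker genes. That limit can by itself bring the libraries closer in type 1 genes, so the set cannot decide where the difference lies. The 40 type 1 genes had a median log2 ratio of -0.20 in LPS against PBS, with 1 higher and 2 lower, beside 11.9% and 16.4% of all genes counted. The median was 0.01 in LPS+RT against PBS+RT and -0.08 in PBS+RT against PBS, with no gene past 2-fold in either pair, beside 5.23% and 7.33%, and 4.82% and 4.8%, of all genes. It was 0.07 in LPS+RT against LPS, with 1 higher and 1 lower, beside 14.5% and 13.3%. Without the deepest LPS barcode, the 19 that remained in LPS gave a median of -0.65 in LPS against PBS, with none of 39 higher and 15 lower, beside 16.6% and 18.1% of all genes. PBS kept its deep barcodes in this comparison, so the 2 sides differ in depth. In LPS+RT against LPS it was then 0.56, with 14 higher and none lower, beside 17.3% and 15.5%. In the 265 AT1-dense members under 5000 UMIs, 18 of them in LPS, the median in LPS against PBS was 0.12, with 6 higher and 1 lower, beside 15.9% and 13.6% of all genes. Values in LPS thus depend on a single deep barcode, while the 3 other libraries differed little in these genes.

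**Figure D3:**
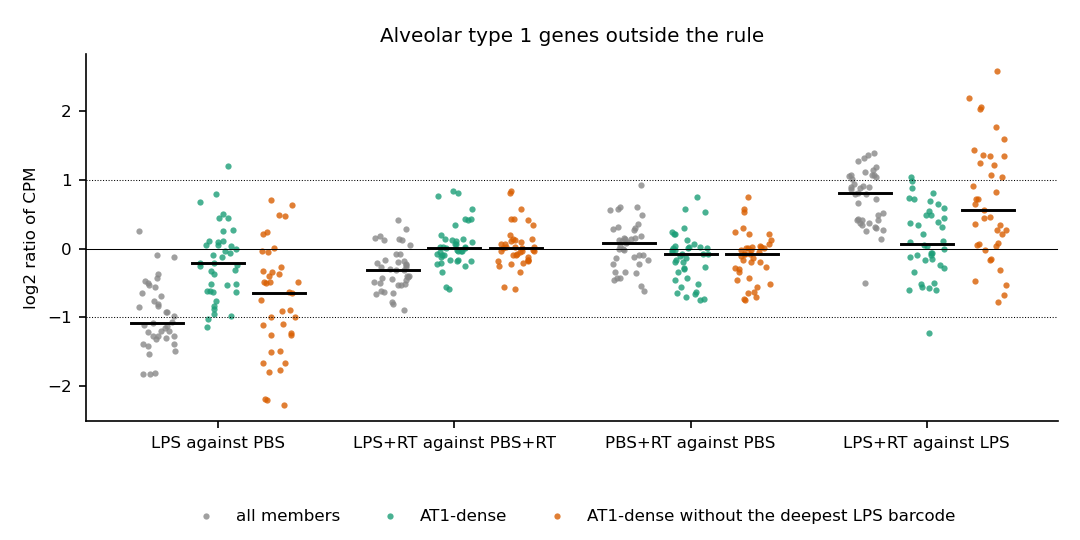
Each point is 1 type 1 gene outside the rule, with its log2 ratio of CPM in each of the 4 comparisons, for all members, AT1-dense members and AT1-dense members without the deepest LPS barcode. Black lines are medians and dotted lines mark 2-fold. The cloud for all members lies around -1.08 in LPS against PBS, and those of the dense members lie around -0.20 and -0.65.

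Hopx had one of the largest differences among the type 1 genes outside the rule. It was at 4764, 3533, 1349 and 3068 CPM in members of PBS, PBS+RT, LPS and LPS+RT, 3.53-fold lower in LPS than in PBS (3.20 to 3.91) and 2.27-fold higher in LPS+RT than in LPS (2.05 to 2.53). In AT1-dense members it was at 8454, 5894, 4354 and 5954 CPM, with LPS 1.94-fold below PBS (1.72 to 2.20) and 2.35-fold below it without the deepest LPS barcode (1.95 to 2.85). PBS was the highest library and LPS the lowest in both sets, while PBS+RT and LPS+RT changed places. The window of its first start is shown above, with 1 NKX2-1 core.

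Other structural genes differed in which library was highest. Cav1, the coat protein of caveolae, was at 947, 1051, 363 and 904 CPM in members of PBS, PBS+RT, LPS and LPS+RT, and at 1556, 1569, 768 and 1511 CPM in AT1-dense members, 2.02-fold lower in dense LPS than PBS (1.52 to 2.75). Cavin2, which shapes the same membrane pits, was at 1722, 2567, 1115 and 2299 CPM in AT1-dense members. Both were highest in PBS+RT and lowest in LPS. Pdpn, the podoplanin of the apical membrane, was at 615, 596, 738 and 760 CPM there, lowest in PBS+RT. Emp2, another membrane protein of type 1 cells, was at 3278, 3244, 2636 and 3277 CPM. Ahnak, a giant scaffold protein, was highest in PBS+RT, at 2204, 3702, 2275 and 2466 CPM, 1.68-fold above PBS (1.54 to 1.84).

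Genes of ion and water transport and of cell junctions were mostly within 2-fold of each other across the libraries. Of 30 genes, 26 had at least 30 CPM. Over all members 1 was higher and 4 were lower in LPS than in PBS (median -0.51), beside 14.3% and 7.03% of all genes counted. None was higher and 1 was lower in LPS+RT than in PBS+RT (-0.26), beside 3.58% and 8.52%. In LPS+RT against LPS 5 were higher and 2 lower (0.11), beside 5% and 14.7%. In AT1-dense members 1 of 26 was higher and 5 were lower in LPS than in PBS (-0.28), near the 11.9% and 16.4% of all genes for the lower ones. There, 2 were higher and 1 was lower in LPS+RT than in LPS (0.39), beside 14.5% and 13.3%. Aqp5, the water channel of the apical membrane, was at 701, 457, 290 and 611 CPM in PBS, PBS+RT, LPS and LPS+RT, 2.42-fold lower in LPS than in PBS. Among AT1-dense members its level was 1345, 812, 1040 and 1452 CPM, so that PBS+RT was the lowest library and LPS+RT stood 1.79-fold above PBS+RT (1.52 to 2.10). Atp1b3, a sodium pump subunit, went the other way in LPS: it was at 61.0, 92.7, 162 and 116 CPM in members, 2.65-fold higher in LPS than in PBS (1.75 to 4.04). Pkp2, a desmosome plaque protein, was at 102, 112, 30.5 and 86.3 CPM in members. Its dense LPS level rests on 3 UMIs from 1 barcode. Scnn1b, a subunit of the epithelial sodium channel, was at 161, 156, 70.2 and 171 CPM in members, and its dense LPS level did not lie below PBS (log2 ratio 0.03).

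Basement membrane components and ligands that type 1 cells send to their neighbours gave the pattern of the type 1 list, with which they share genes. Of 38 genes, 27 had at least 30 CPM. Over all members 2 were higher and 15 lower in LPS than in PBS (median -1.06), beside 14.3% and 7.03% of all genes counted. In LPS+RT against LPS 7 were higher and 2 lower (0.58), beside 5% and 14.7%. In AT1-dense members the medians were -0.23 and 0.19. Vegfa, the growth factor that maintains alveolar capillaries, was at 1385, 1367, 397 and 1036 CPM in members of PBS, PBS+RT, LPS and LPS+RT, 3.49-fold lower in LPS than in PBS (2.9 to 4.22). AT1-dense members had 2444, 2142, 1446 and 2168 CPM of it, and 79 of the 96 UMIs in LPS came from 1 barcode. Without that barcode LPS was 4.59-fold lower (2.85 to 7.92), but PBS then kept its deep barcodes, where Vegfa was at 2955 CPM. In AT1-dense members under 5000 UMIs it was at 1176, 981, 702 and 1056 CPM. The 3 other libraries lay close together in both sets. Hspg2, the basement membrane proteoglycan perlecan, was at 152, 106, 30.5 and 89.2 CPM in members, with 10 UMIs in LPS. Col4a3, a collagen IV chain, was at 957, 1338, 415 and 766 CPM in members, but at 1711, 1986, 1838 and 1658 CPM in AT1-dense members, with no library apart.

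Some of the named genes with the largest differences were held by many barcodes and belonged to the dense members. Igfbp6, a binding protein of insulin-like growth factors, was lowest in LPS, at 553, 533, 88.5 and 504 CPM in members, 6.25-fold lower than in PBS (4.28 to 9.44) and 5.69-fold higher in LPS+RT than in LPS (3.89 to 8.63). It was at 1057, 902, 316 and 1138 CPM in AT1-dense members, 3.34-fold lower in LPS than in PBS (2.16 to 5.46) and 1.88-fold without the deepest LPS barcode (1.17 to 3.20). The LPS level rests on 21 dense UMIs, while each of the other libraries had 286 to 382. Bcar3, an adaptor of cell adhesion signalling, had 165, 146, 11 and 120 UMIs in members of PBS, PBS+RT, LPS and LPS+RT, and Ntn4, a netrin of basement membranes, 112, 81, 7 and 60. Both were lowest in LPS by count and by CPM. The 10 genes with the lowest ratios in LPS against PBS had log2 ratios from -4.08 to -2.16, and none had 50% or more of its PBS UMIs in 1 barcode. In AT1-dense members 8 were also at least 2-fold lower, beside 16.4% of all genes. Without the deepest LPS barcode 6 were, beside 18.1%, and 1 had no ratio. AT1-dense members are part of all members, so these counts are not separate evidence.

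Markers of a transitional epithelial state, in which type 2 cells on their way to type 1 carry keratin 8, had few genes past 2-fold. Of 28 genes, 26 were present and 19 had at least 30 CPM in members. In LPS against PBS 3 were higher and 2 lower (median -0.14), near the 14.3% and 7.03% of all genes counted. In LPS+RT against PBS+RT 1 was higher and none lower (-0.13), beside 3.58% and 8.52%. In PBS+RT against PBS, 16 of the 19 had a ratio below 1 and the intervals of 12 lay below 1. In that pair 1 gene was at least 2-fold higher and 2 were lower (-0.34), beside 5.98% and 2% of all genes. In AT1-dense members 14 of 20 lay below 1 in that pair, 9 of them with their interval (-0.30). Krt8 was at 352, 226, 321 and 178 CPM in members of PBS, PBS+RT, LPS and LPS+RT, and at 512, 314, 392 and 338 CPM in AT1-dense members. PBS was the highest library in both. Krt19, another simple epithelial keratin, was lower in LPS, at 565, 407, 181 and 330 CPM in AT1-dense members, 3.12-fold below PBS (1.75 to 6.15). Cldn4, a claudin of injured alveolar epithelium, had no UMI in PBS, PBS+RT and LPS+RT and 2 in LPS.

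Inflammatory genes were higher in LPS, but their counts came mainly from members without a dense type 1 profile. Of 25 NF-kB cytokines and chemokines, 10 had at least 30 CPM. In LPS against PBS 8 were higher and 1 lower (median 6.43), beside 14.3% and 7.03% of all genes counted. In LPS+RT against PBS+RT 8 were higher (2.57), beside 3.58%. In LPS+RT against LPS 7 were lower and 1 higher (-3.12), beside 14.7% and 5%. Cxcl2, a chemokine for neutrophils, was at 14.9, 21.3, 4011 and 219 CPM in members of PBS, PBS+RT, LPS and LPS+RT, 269-fold higher in LPS than in PBS (150 to 540). Of its LPS UMIs, 83.2% lay in members that were neither dense, airway-marked nor hemoglobin-rich. Of these 1093 UMIs, single barcodes held 320, 225, 168, 141, 106 and 63, and the next highest held 9. The rise in Cxcl2 thus rested on few barcodes. Of 213 UMIs in AT1-dense members of LPS, 202 came from the deepest barcode, which also held 97 of 104 UMIs of Il1b, a cytokine of myeloid cells. S100a8, a neutrophil calcium-binding protein, moved with these genes, at 36.6, 42.5, 833 and 229 CPM in members. Of its LPS UMIs, 89.7% lay in the same other members. Over the 12 neutrophil markers, 6 of which had at least 30 CPM in members, the summed level was 202, 343, 3062 and 645 CPM in PBS, PBS+RT, LPS and LPS+RT, and 5 of the 6 were higher in LPS. In AT1-dense members it was 111, 138, 1522 and 318 CPM, and 689 CPM in LPS without the deepest barcode. Of the 12 markers 4 could be counted there, and all 4 were higher in LPS than in PBS (median 3.94), beside 11.9% of all genes. Cxcr2, the chemokine receptor of neutrophils and 1 of the 12 markers, had 0 UMIs in the members of every library. It was chosen after its value was seen. The part of RNA from neutrophils and other myeloid cells in the inflammatory counts was not tested.

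**Figure D4:**
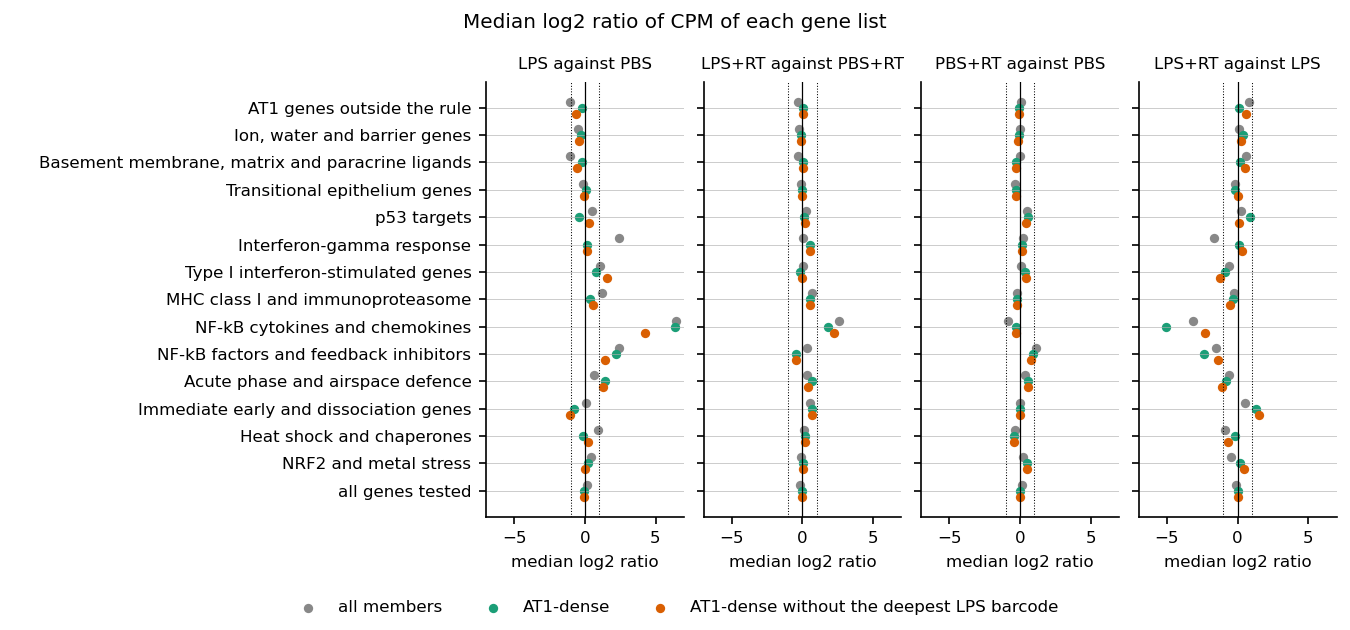
Points are the median log2 ratio of each gene list in the 4 comparisons for all members, AT1-dense members and AT1-dense members without the deepest LPS barcode, and dotted lines mark 2-fold. The NF-kB cytokines reach 6.43 in LPS against PBS for all members, while in PBS+RT against PBS the lists lie between -0.84 and 1.12.

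A few defence genes were higher in LPS among dense members without resting on the deepest barcode. Lcn2, a siderophore-binding protein of epithelium and neutrophils, had 1, 1, 20 and 9 UMIs in AT1-dense members of PBS, PBS+RT, LPS and LPS+RT, and 12 remained in LPS without that barcode, in 7 barcodes. In this set 16.6% of all genes counted were higher in LPS than in PBS. Lcn2 was also higher in LPS than in PBS in other cells, at 637 against 4.62 CPM in fibroblast-marked, 245 against 20.3 CPM in endothelial-marked and 1194 against 85.2 CPM in leukocyte-marked barcodes. Saa3, an acute phase serum amyloid, had 0, 0, 8 and 10 UMIs there, and LPS was at least 14.5-fold higher than PBS, taken against a floor of 3 UMIs for a library at 0. Fth1, the ferritin heavy chain that stores iron, was at 3045, 4687, 11344 and 7071 CPM in AT1-dense members, 3.73-fold higher in LPS than in PBS (3.39 to 4.09) and 3.99-fold without the deepest barcode (3.54 to 4.48). It was also highest in LPS in endothelial-marked barcodes (1441, 818, 4275 and 2021 CPM) and in leukocyte-marked ones (6221, 4407, 29617 and 16172 CPM), and there PBS+RT lay below PBS. Of the 12 acute phase and defence genes outside the rule with at least 30 CPM in members, 5 were higher and 1 lower in LPS than in PBS, and 4 higher and 2 lower in LPS+RT than in PBS+RT. Of all genes counted in members, 14.3% were higher and 7.03% lower in the first pair, and 3.58% and 8.52% in the second. H2-D1, a class I antigen-presenting molecule, was at 556, 491, 1024 and 712 CPM in AT1-dense members, with both LPS libraries above both PBS libraries. In LPS, 48 of these UMIs lay in the 2 barcodes of at least 5000 UMIs and 20 in the other 18. Of 14 class I and immunoproteasome genes with at least 30 CPM in members, 8 were higher in LPS than in PBS (median 1.18) and 3 in LPS+RT than in PBS+RT (0.69). In AT1-dense members 2 of 10 were higher and 1 lower in LPS than in PBS (0.36), beside 11.9% and 16.4% of all genes. Without the deepest LPS barcode 4 were higher and 1 lower (0.57), beside 16.6% and 18.1%. In dense LPS+RT against PBS+RT 2 of 10 were higher and none lower (0.53), beside 5.23% and 7.33%. Over all members, 8 of 15 type I interferon-stimulated genes were higher in LPS than in PBS (1.07). In LPS+RT against PBS+RT, 4 were higher and 1 lower (0.02). Isg15, a ubiquitin-like protein of that response, was at 25.7, 15.2, 113 and 41.6 CPM in members.

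Some NF-kB factors and their inhibitors were higher in PBS+RT than in PBS as well. Of 12 with at least 30 CPM in members, 7 were higher in PBS+RT than in PBS (median 1.12) and none lower, and in AT1-dense members 5 of 12 were higher and none lower (0.92), with the intervals of 3 above 1, where 5.98% of all genes in members and 4.82% in dense members were higher. LPS+RT against LPS went the other way, with none of 12 higher and 9 lower in AT1-dense members (-2.37), beside 14.5% and 13.3% of all genes. Without the deepest LPS barcode 2 of 9 were higher and 6 lower (-1.39), beside 17.3% and 15.5%. Nfkbia, an inhibitor of NF-kB that NF-kB itself induces, was at 163, 326, 467 and 239 CPM in AT1-dense members of PBS, PBS+RT, LPS and LPS+RT. It was 2.00-fold higher in PBS+RT than in PBS (1.44 to 2.79), in 33 barcodes against 26. Of the 31 UMIs in LPS, 29 came from the deepest barcode, so the LPS level is that of 1 droplet. Rel, an NF-kB subunit, was at 8.30, 35.9, 226 and 23.9 CPM there, from 3, 12, 15 and 6 UMIs. Summed over the list, NF-kB factors and inhibitors were at 628 and 887 CPM in AT1-dense members of PBS and PBS+RT. The summed macrophage and monocyte markers were at 448 and 554 CPM there, and the neutrophil markers at 111 and 138 CPM. The part of leukocyte RNA in the result was not tested.

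Some p53 targets were higher in PBS+RT than in PBS. Of 36 targets, 13 had at least 30 CPM in AT1-dense members. In PBS+RT against PBS, 4 of the 13 were at least 2-fold higher and 1 was lower, beside 4.82% and 4.8% of all genes. Their median was 0.56 (-0.02 for all genes), 11 had a ratio above 1, and the intervals of 6 lay above 1 and that of 1 below. Over all members 3 of 18 were higher and none lower (0.48, beside 0.11 for all genes), where 5.98% and 2% of all genes were. In LPS against PBS, both unirradiated, the median over all members was also 0.48, with 6 of 18 higher and 1 lower. Of all genes, 14.3% and 7.03% were. In AT1-dense members 3 of 11 were higher and 3 lower in that pair (-0.41), beside 11.9% and 16.4%. Without the deepest LPS barcode 5 were higher and 2 lower (0.27), beside 16.6% and 18.1%. In LPS+RT against LPS, 5 of the 13 were higher and 1 lower in AT1-dense members (0.84), beside 14.5% and 13.3% of all genes. But without the deepest LPS barcode 4 were higher and 4 lower (0.11), beside 17.3% and 15.5%. In LPS+RT against PBS+RT, both irradiated, none of the 13 was higher and 1 was lower (0.13), beside 5.23% and 7.33%.

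Cdkn1a, the p21 inhibitor of cell cycle kinases, had 44, 99, 41 and 141 UMIs in members of PBS, PBS+RT, LPS and LPS+RT, which is 59.6, 150, 125 and 210 CPM. It was 2.52-fold higher in PBS+RT than in PBS (1.75 to 3.68) and 1.68-fold higher in LPS+RT than in LPS (1.18 to 2.43). It also was 2.10-fold higher in LPS than in PBS (1.34 to 3.29). In AT1-dense members it had 13, 42, 5 and 36 UMIs in 10, 27, 2 and 23 barcodes, at 36, 126, 75.3 and 143 CPM. There it was 3.50-fold higher in PBS+RT than in PBS (1.84 to 7.10), with at most 5 of the 42 UMIs in 1 barcode. The dense difference of LPS+RT from LPS, 1.90-fold, has an interval that includes 1 (0.743 to 6.21). Both irradiated libraries stood above both unirradiated ones in members and in dense members. The window of its first start is shown above, with 2 p53 half-sites, and that of its second start held none.

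Ccng1, the cyclin G1 that acts in the feedback on p53, had 17, 45, 10 and 63 UMIs in members of PBS, PBS+RT, LPS and LPS+RT. It was 2.97-fold higher in PBS+RT than in PBS (1.67 to 5.53) and 3.07-fold higher in LPS+RT than in LPS (1.56 to 6.71). In AT1-dense members it had 12, 24, 0 and 27 UMIs, 2.16-fold higher in PBS+RT than in PBS (1.04 to 4.75) and at least 2.38-fold higher in LPS+RT than in LPS. Again the irradiated libraries were the higher ones. Phlda3, an inhibitor of AKT, had 3, 14, 0 and 9 UMIs in AT1-dense members, below the mean of 30 CPM, and was 5.05-fold higher in PBS+RT than in PBS (1.41 to 27.4). Trp53inp1, a p53 partner in cell death and autophagy, had 14, 26, 0 and 14 UMIs and was 2.01-fold higher in PBS+RT than in PBS (1.01 to 4.16).

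Btg2, an antiproliferative factor, had 102, 126, 12 and 160 UMIs in AT1-dense members of PBS, PBS+RT, LPS and LPS+RT, at 282, 377, 181 and 636 CPM. It was 1.34-fold higher in PBS+RT than in PBS (1.02 to 1.75), and all 12 LPS UMIs came from 1 barcode. Over all members it was at 218, 366, 229 and 418 CPM. Bax, which permeabilizes mitochondria in apoptosis, had 27, 34, 1 and 28 UMIs in AT1-dense members, at 74.7, 102, 15.1 and 111 CPM, and the interval of its 1.36-fold difference between PBS+RT and PBS includes 1 (0.798 to 2.35). For both genes the irradiated libraries lay above the other libraries in AT1-dense members. Over all members Bax was higher in LPS than in PBS+RT. Of its LPS UMIs, 91.7% lay in members that were neither dense, airway-marked nor hemoglobin-rich. Fas and Mdm2 did not have both irradiated libraries above the others in AT1-dense members. Fas, the death receptor, was at 19.4, 56.9, 105 and 23.9 CPM in AT1-dense members of PBS, PBS+RT, LPS and LPS+RT. It was 2.94-fold higher in PBS+RT than in PBS (1.18 to 8.27) but 4.42-fold lower in LPS+RT than in LPS (1.27 to 15.9), on 6 and 7 UMIs. Mdm2, the ubiquitin ligase that degrades p53, was at 84.0, 109, 366 and 68.4 CPM in members, and 89 of its 120 UMIs in LPS came from 1 barcode. In AT1-dense members Mdm2 had 29, 36, 4 and 17 UMIs, at 80.3, 108, 60.3 and 67.6 CPM. Gdf15, a stress cytokine and target of p53, was 63.1-fold higher in LPS than in PBS over all members (16.7 to 534), from 2 and 56 UMIs, and had none in dense LPS members.

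**Figure D5:**
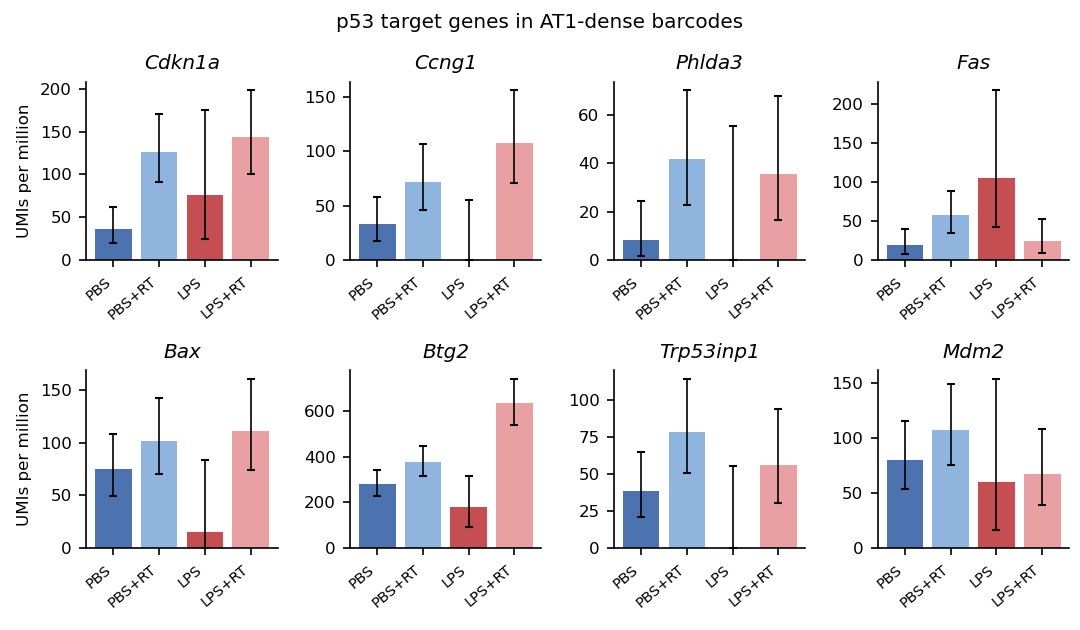
Bars give CPM of 8 p53 targets in AT1-dense members of the 4 libraries, with exact Poisson 95% intervals for counting error. Cdkn1a stands at 126 and 143 CPM in the irradiated libraries and at 36 and 75.3 CPM in the others, while Mdm2 in LPS+RT, at 67.6 CPM, lies below PBS, at 80.3 CPM.

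Cdkn1a had its higher levels in the irradiated libraries in other cells as well, and the sizes were not tested against each other. Cdkn1a was at 834, 1265, 497 and 1475 CPM in endothelial-marked barcodes of PBS, PBS+RT, LPS and LPS+RT. It was at 277, 379, 189 and 533 CPM in fibroblast-marked and at 250, 377, 288 and 377 CPM in leukocyte-marked barcodes. Both irradiated libraries were above both others in each of these sets too. Not every target did this: Phlda3 was at 114, 109, 96.2 and 146 CPM in fibroblast-marked barcodes, and Mdm2 at 68.8, 123, 175 and 151 CPM in leukocyte-marked ones. The median of the p53 targets in PBS+RT against PBS was 0.58 in endothelial-marked barcodes (18 genes, 3 higher), 0.50 in fibroblast-marked ones (14 genes, none past 2-fold) and 0.22 in leukocyte-marked ones (15 genes, 1 higher). Of all genes counted in these sets, 2.51%, 4.43% and 1.25% were higher in that pair, with medians of 0.04, 0.10 and 0.17.

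Stress genes differed between PBS and PBS+RT in both directions. Txnrd1, the thioredoxin reductase regulated by NRF2, was at 58.1, 183, 226 and 75.6 CPM in AT1-dense members of PBS, PBS+RT, LPS and LPS+RT, 3.14-fold higher in PBS+RT than in PBS (1.89 to 5.43). Gsr, the glutathione reductase, was at 24.9, 62.9, 151 and 47.7 CPM, 2.52-fold higher (1.11 to 6.26). LPS+RT lay between PBS and PBS+RT for both, and LPS was the highest. The LPS levels rest on 2 barcodes of at least 5000 UMIs, which held 12 UMIs of Txnrd1 and 9 of Gsr. The other 18 AT1-dense members of LPS held 3 and 1. Of the 16 NRF2 and metal stress genes with at least 30 CPM in dense members, 15 had a ratio in PBS+RT against PBS. Of these, 3 were higher and none lower in PBS+RT than in PBS (median 0.49), beside 4.82% and 4.8% of all genes counted. Hspb1, a small heat shock protein, was at 501, 180, 136 and 215 CPM, 2.79-fold lower in PBS+RT than in PBS (2.07 to 3.80). Hspa1a, the inducible chaperone Hsp70, had 30, 6, 3 and 9 UMIs. Of 20 heat shock genes none was higher and 4 were lower in PBS+RT than in PBS (-0.39), beside the same shares of all genes. PBS was the highest library for both chaperones among dense members, while LPS was highest over all members, at 1053 CPM for Hspb1. Fosb, an immediate early gene that tissue dissociation also induces, was at 280, 135, 136 and 533 CPM in AT1-dense members, 3.95-fold higher in LPS+RT than in PBS+RT (2.80 to 5.67). Of 18 immediate early genes, 5 were higher and none lower in that pair (0.71), beside 5.23% and 7.33% of all genes. In LPS+RT against LPS, 13 of the 18 were higher and 2 lower (1.27), beside 14.5% and 13.3%. In LPS against PBS 3 were higher and 7 lower (-0.74), beside 11.9% and 16.4%.

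Signalling targets and 6 further lists are read against all genes counted over all members, of which 14.3% were higher and 7.03% lower in LPS than in PBS. Targets of YAP, WNT, BMP and TGF-beta signalling, pathways that act in type 1 cells, had 1 of 19 genes higher and 7 lower in LPS than in PBS over all members (median -0.51). In LPS+RT against LPS 5 were higher and none lower (0.63), beside 5% and 14.7% of all genes. In AT1-dense members none of 17 was higher and 5 were lower in LPS than in PBS (-0.66), beside 11.9% and 16.4% of all genes in that set. Interferon-gamma response genes had 7 of 9 higher in LPS than in PBS over all members (2.44), but only 4 genes could be counted in AT1-dense members, none past 2-fold (0.14). Receptors for endotoxin and cytokines had 6 of 20 higher and 1 lower in LPS than in PBS (0.63). Cd14, the endotoxin co-receptor of myeloid cells, was at 16.3, 18.2, 351 and 32.7 CPM in members of PBS, PBS+RT, LPS and LPS+RT, and 87 of its 115 UMIs in LPS lay in members that were neither dense, airway-marked nor hemoglobin-rich. Cell death genes had 3 of 11 higher and none lower in that pair (0.87), glycolysis and hypoxia genes 2 of 13 higher and 1 lower (0.24), near the share of all genes, and MHC class II genes none of 5 past 2-fold (0.43). Cell cycle genes were mostly below 30 CPM: 5 of 24 were counted, 1 of them higher in LPS than in PBS and none past 2-fold in PBS+RT against PBS (-0.03).

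Single genes lower in PBS+RT than in PBS came with enough counts in several cases. H2-T23, a nonclassical class I molecule, had 61, 17, 23 and 58 UMIs in members of PBS, PBS+RT, LPS and LPS+RT, 3.20-fold lower in PBS+RT than in PBS. In AT1-dense members it had 34, 7, 2 and 21 UMIs, 4.49-fold lower (1.96 to 12). Ctla2a, a cathepsin inhibitor, had 121, 37, 5 and 60 UMIs there, 3.02-fold lower (2.08 to 4.49). Npw, the neuropeptide W precursor, had 54, 15, 3 and 26, 3.33-fold lower (1.85 to 6.35). In each of the 3 genes LPS+RT lay between PBS+RT and PBS by UMIs. Cbr2, a carbonyl reductase abundant in airway secretory cells, had 1239, 385, 252 and 232 UMIs in members, at 1679, 585, 769 and 345 CPM. Airway-marked members held 96.1%, 96.4%, 97.2% and 90.1% of these UMIs. The secretory gene Scgb1a1 was at 88694, 25282, 9973 and 33656 CPM in members.

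Many of the other named genes were set by single barcodes. Of the 10 genes with the highest ratios in PBS+RT against PBS (log2 2.09 to 6.17), 6 had 50% or more of their UMIs in the higher library in 1 barcode, and of the 10 in LPS+RT against PBS+RT (1.75 to 7.22), also 6. Nr4a3, an orphan nuclear receptor, had 118 of 131 UMIs of PBS+RT in 1 barcode. Ccl4, a chemokine of myeloid cells, had 94.8% of its 458 UMIs in LPS+RT in 1 barcode, and Cxcl10, a chemokine induced by interferon, 69.5% of its 82 in LPS. Sftpc, the surfactant protein of type 2 cells, was at 1763, 138, 232 and 831 CPM in members of PBS, PBS+RT, LPS and LPS+RT, and 1 barcode held 509 of the 1301 UMIs in PBS and 1 held 349 of the 559 in LPS+RT. Its level in AT1-dense members was 205, 150, 121 and 183 CPM. Of the 10 highest in LPS+RT against LPS (1.83 to 3.87), with Igfbp6 and Bcar3 among them, none had such a barcode. In AT1-dense members, which are part of all members, 8 were at least 2-fold higher too, beside 14.5% of all genes. Without the deepest LPS barcode 6 were, beside 17.3%, and 2 had no ratio.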

How the data were processed

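Raw UMI counts for each gene in each barcode were deposited by the authors, and the file headers name Cell Ranger 7.0.1. The submitters' processing notes list mm10, Cell Ranger 7, Seurat 4.3.0 and R 4.2.2. The handling of intron reads is not given in the sources used here. Of 37359 deposited barcodes, 34440 passed the filters. The members' UMIs were summed per library and compared as CPM with Python 3.11.15, numpy 2.4.6, scipy 1.17.1 and pandas 2.3.3, in 4 comparisons: LPS against PBS, LPS+RT against PBS+RT, PBS+RT against PBS and LPS+RT against LPS. Shares have Clopper-Pearson intervals, levels Poisson intervals and ratios conditional binomial intervals. The ratio step was tested on simulated counts. A library at 0 UMIs was put at a floor of 3 UMIs, and its fold is a bound. Lists comprise 20 functional lists (494 genes) and 11 marker lists. The members and lists were chosen with earlier results of these data known. Positions are from GENCODE M21. Figures were drawn with matplotlib 3.10.9.

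Named genes are, in each comparison, the 10 highest and 10 lowest ratios after adding 10 CPM. Their mean is 30 CPM or more, with 30 UMIs or more on the higher side, and in AT2-, endothelial-, fibroblast- and leukocyte-marked barcodes they do not exceed their member level by over 5 times. Genes of mitochondria, ribosomal proteins, hemoglobin and immunoglobulins, the rule's genes and markers of other cells were left out. For each list, 2 to 4 members with the largest ratios in all or AT1-dense members, and a fixed set that includes Hopx, Cdkn1a and Sftpc, were named too. Emp2, Nfkbia, Trp53inp1, Cxcr2 and Scgb1a1 lie outside this rule and were chosen after their values were seen. The groups AT1-dense, airway-marked and hemoglobin-rich were also defined after the data were seen.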

Additional observations from a re-analysis of the deposited data

Results flagged for a closer look

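For 4 genes the LPS libraries lay on opposite sides of their PBS libraries with and without irradiation, past 2-fold in both pairs. The differences between the pairs were not tested. Sftpc, the type 2 cell surfactant gene, was 7.60-fold lower in LPS than in PBS and 6.01-fold higher in LPS+RT than in PBS+RT, a log2 difference between the ratios of 5.51. Nr4a3, at 4.07, 199, 88.5 and 16.4 CPM in PBS, PBS+RT, LPS and LPS+RT, was higher in the first pair and lower in the second, a log2 difference of -8.05. Hdac9, a histone deacetylase with 1, 64, 36 and 11 UMIs, gave -8.91. Txnrd1, with 57, 102, 51 and 45 UMIs in all members, gave -2.22. In AT1-dense members it was 3.89-fold higher in LPS than in PBS (1.86 to 7.91) and 2.42-fold lower in LPS+RT than in PBS+RT (1.42 to 4.29). Of its dense LPS UMIs, 12 came from 2 barcodes and 3 from the other 18. For Sftpc and Nr4a3, large parts of the counts came from 1 barcode.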

How the results depend on the processing

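Depth is the main limit. The LPS library holds 105 members and 20 AT1-dense ones, 1 UMI is 3.05 CPM among its members and 15.1 CPM among its dense members, and no value has a replicate. No paired analysis was possible because each group is 1 library. Over the alternatives, 25 values of shares and their ratios moved by less than their counting interval, 38 moved and 1 changed direction. Of the counts of genes past 2-fold, 63 stayed within 1.5 times and 41 did not. Of list medians 902 stayed within their limits, 115 moved and 4 changed sign, and of single-gene ratios 2214, 563 and 24 did. The alternatives on AT1-dense, airway-marked and hemoglobin-rich members, and on the deepest barcodes, were chosen after seeing the data. The cause of each move was not tested, except where a setting leaves fewer genes or members by construction.

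Values are given for PBS, PBS+RT, LPS and LPS+RT in that order. Shares of members were 3.46%, 3.47%, 1.48% and 3.48% with a marker sum of at least 2, and 1.75%, 2.49%, 0.689% and 2.16% with at least 5. They were 1.74%, 2.36%, 0.716% and 1.79% thinned to 2000 UMIs, where LPS+RT stood at 0.760 of PBS+RT, and 2.14%, 2.5%, 0.935% and 2.22% with at most 5% mitochondrial UMIs. They were 3.80%, 4.79%, 3.27% and 4.95% of barcodes without Ptprc, with ratios of 0.859 in LPS against PBS and 1.52 in LPS+RT against LPS. AT1-dense members were 1.02%, 1.5%, 0.219% and 0.938%, with ratios of 0.215 in LPS against PBS, 0.626 in LPS+RT against PBS+RT, 1.47 in PBS+RT against PBS and 4.29 in LPS+RT against LPS.

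The strictest planned setting also removed barcodes with any UMI of 8 further lineage genes. It left 7, 22, 12 and 20 members, of which PBS held 7450 UMIs in total, so that 1 UMI is 134 CPM. Their shares were 0.0774%, 0.347%, 0.131% and 0.202%. The ratios were 1.70 in LPS against PBS, a reversal, 0.582 in LPS+RT against PBS+RT, 4.48 in PBS+RT against PBS and 1.54 in LPS+RT against LPS. In LPS against PBS 157 genes were higher. There were 385 higher and 992 lower in LPS+RT against PBS+RT, 148 and 552 in PBS+RT against PBS, and 457 higher in LPS+RT against LPS. The reversed medians in LPS against PBS were -0.71 for type I interferon genes and -0.39 for class I genes. Reversed log2 ratios were 0.64 for Krt7, 1.22 for Aqp5, 0.64 for Krt19 and -0.17 for Cdkn1a in LPS against PBS, -1.42 for Aqp5 and -1.84 for Scnn1b in LPS+RT against LPS, and -0.34 for Cdkn1a and -1.56 for Ccng1 in PBS+RT against PBS.

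In AT1-dense members 834 genes were lower in LPS against PBS, 246 lower in PBS+RT against PBS and 736 higher in LPS+RT against LPS. The interferon-gamma median in LPS+RT against LPS changed sign to 0.10 there, and to 0.30 with a marker sum of at least 5. Reversed log2 ratios in AT1-dense members in LPS against PBS were 0.034 for Scnn1b, 0.10 for Col4a3, -0.41 for Mdm2, -0.14 for Msrb1, -1.89 for Hspb1 and -0.88 for Hspa1a. In LPS+RT against LPS they were 0.17 for Mdm2, 0.0046 for Msrb1, 1.08 for Cbr2 and 0.66 for Hspb1. Il1b in PBS+RT against PBS was -1.89, and -0.50 with a marker sum of at least 5. Without the 10% deepest members, Fosb (0.34) and Hspb1 (-0.40) reversed in LPS against PBS and Hdac9 (0.069) in LPS+RT against LPS, and 510 genes were higher in LPS against PBS, 268 lower in PBS+RT against PBS and 525 lower in LPS+RT against LPS.

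Genes past 2-fold, higher and then lower, numbered 153 and 132, 53 and 77, 51 and 19, and 73 and 131 with a mean of at least 100 CPM, and 1938 and 1189, 773 and 1655, 1240 and 750, and 983 and 2197 without a filter. These are in LPS against PBS, LPS+RT against PBS+RT, PBS+RT against PBS and LPS+RT against LPS, where all members with at least 30 CPM gave 769 and 377, 192 and 457, 320 and 107, and 268 and 789. With at most 5% mitochondrial UMIs, 509 were higher in PBS+RT against PBS. Without airway-marked and hemoglobin-rich members, 752 were lower in LPS against PBS, 188 lower in PBS+RT against PBS, and 419 higher and 521 lower in LPS+RT against LPS, where Cbr2 reversed to 0.42. Without AT1-dense members over 5000 UMIs, 221 were lower in LPS against PBS, and 647 higher and 187 lower in PBS+RT against PBS. With each cell weighted equally, 301 were lower in PBS+RT against PBS and 495 lower in LPS+RT against LPS. Without the deepest LPS member, 434 were higher in LPS+RT against LPS. With median-of-ratios scaling, LPS+RT against PBS+RT gave 304 higher and 293 lower.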
